A study of Mus musculus with 29 samples.

Results

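The large H3K27ac domains of adult microglia are long stretches of the mouse genome in which regions marked by H3K27ac, an acetylated histone found at active enhancers and promoters, lie close together. They were chosen from the wild-type (WT) H3K27ac peak lists alone. Regions present in both WT libraries (36706 merged consensus regions on chromosomes 1 to 19 and X) were joined wherever the gap was at most 12.5 kb, which gave 16163 stitched domains. The 500 domains with the most base pairs covered by consensus regions were kept, 3.09% of all domains, and are called the large domains here. They held 6510 consensus regions and 25.7% of all consensus base pairs. Because WT H3K27ac chose them, their size and their WT coverage are descriptions and were not tested.

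Clusters of active enhancers of this kind, often called super-enhancers, tend to lie near genes that set the identity of a cell type, and they collect binding sites of its lineage transcription factors. In microglia, which are the macrophages that live in the brain, PU.1 (an ETS-family factor) opens many enhancers. IRF8 is an interferon regulatory factor that binds DNA weakly on its own and often joins PU.1 on composite ETS-IRF sites. H3K4me1 marks enhancers whether active or only primed, so reading it beside H3K27ac separates the loss of activity from the loss of the enhancer mark.

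All profiles were made by CUT&RUN, in which protein A fused to micrococcal nuclease cuts the DNA around an antibody-bound protein, in sorted cells of female mice. IRF8 was read with an antibody to GFP in IRF8-EGFP mice, which carry an IRF8 fusion protein, in 4 libraries of P9 and 3 of P14 microglia (postnatal days 9 and 14), 3 of adult microglia and 3 of peritoneal macrophages (PM). PU.1, H3K27ac and H3K4me1 were read in adult microglia of WT and IRF8KO mice (KO below), with 2 libraries for each target and genotype. The stated age of 3 months was taken to apply to the adults. Per the labels, the P9 libraries were 4 of 7 made and the KO H3K27ac libraries 2 of 3; nothing says how they were chosen or that libraries came from separate animals, so p-values measure only the spread between these libraries. The source label of the peritoneal libraries names microglia, and the titles were followed. The lists hold no measure of Irf8 transcript or protein, so the deletion itself was not checked.

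Depth was uneven. The IRF8 libraries had 7.25 to 24.7 M fragments (M, mega), and the KO H3K27ac libraries had 14.7 and 8.57 M against 20.2 and 15.4 M in WT. The lists differed far more in length: 1157 to 2060 IRF8 regions per library at P9, 7910 to 19223 at P14, 17030 to 29635 in adults and 9772 to 23150 in PM. KO H3K27ac replicate 1 listed 88394 regions over 65.6 Mb and replicate 2 only 31369 regions over 16.9 Mb, against 72353 and 72870 regions over 87.6 and 76.9 Mb in WT. Each IRF8 stage or tissue was called against its own IgG control, so stage or tissue and control cannot be told apart.

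The 5 sites below show what the domains look like at base level, each being the 200 bp around the strongest adult IRF8 summit of its domain, on the plus strand of GRCm38.p6 (mm10), with the sequence taken from RefSeq. The first pair are the sites among the longest domains and the domains holding a listed gene's start that carry the composite ETS-IRF motif, GGAA and GAAA with any 2 bases between them; of 37 such domains with an adult summit, 2 carried it. One lies in an intron of Itgav (chr2:83742760-83742959) and one in an intron of Cd9 (chr6:125471615-125471814). The Magi1 site, in an intron (chr6:94159574-94159773), carries it too and is 1 of 2 that do among the 9 strongest summits of the 10 domains with the least H3K27ac in KO. Over all 484 large domains with an adult consensus summit, 21 (4.34%) carried it at the strongest one. The last pair were chosen after their values were seen and carry no composite motif. One comes from a domain that kept part of its H3K27ac in both KO libraries, the other from a domain that kept almost none. The former lies in the P2ry12 gene, which here lies inside the longer gene Med12l (chr3:59228959-59229158). The latter lies between genes, 361 kb from the start of Sall1 (chr8:89404576-89404775). Capitals mark the composite motif on either strand in the first 3 sites, and every GGAA, the ETS core, on either strand in the last pair.
Itgav site: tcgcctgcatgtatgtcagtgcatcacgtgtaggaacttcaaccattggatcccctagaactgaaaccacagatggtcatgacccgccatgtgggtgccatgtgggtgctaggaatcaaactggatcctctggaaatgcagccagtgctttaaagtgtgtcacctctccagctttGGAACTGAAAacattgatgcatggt
Cd9 site: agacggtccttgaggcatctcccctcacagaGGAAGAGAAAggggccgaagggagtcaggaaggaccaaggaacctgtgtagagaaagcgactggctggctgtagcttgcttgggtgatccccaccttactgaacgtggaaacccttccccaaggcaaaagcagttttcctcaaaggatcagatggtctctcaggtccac
Magi1 site: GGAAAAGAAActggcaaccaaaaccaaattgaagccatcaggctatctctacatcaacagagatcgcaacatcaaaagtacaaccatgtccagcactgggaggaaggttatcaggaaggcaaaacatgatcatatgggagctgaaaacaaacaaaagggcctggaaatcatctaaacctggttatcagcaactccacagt
P2ry12 site: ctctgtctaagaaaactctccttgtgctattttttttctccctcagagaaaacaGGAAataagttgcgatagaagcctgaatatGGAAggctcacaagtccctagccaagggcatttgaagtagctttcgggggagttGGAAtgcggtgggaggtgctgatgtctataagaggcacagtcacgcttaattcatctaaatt
Sall1-distal site: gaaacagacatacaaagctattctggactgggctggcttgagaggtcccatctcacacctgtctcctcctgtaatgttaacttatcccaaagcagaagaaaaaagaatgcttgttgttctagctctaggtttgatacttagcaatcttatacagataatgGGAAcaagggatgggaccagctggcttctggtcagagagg

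The same sites differ in which libraries list a peak over the adult IRF8 consensus region that holds each summit. That region can be longer than the 200 bp shown, so a peak counted for a site need not cover the printed bases. The P2ry12 site was listed in 3 of 4 P9 libraries, all P14, adult and PM libraries, and in every PU.1, H3K27ac and H3K4me1 library of both genotypes. The Sall1-distal site was listed in 2 of 4 P9 libraries, in all P14 and adult libraries and in no PM library. Both WT libraries of PU.1, H3K27ac and H3K4me1 listed it, and no KO library of any of the 3 did. At the Magi1 site, too, no KO library listed PU.1, H3K27ac or H3K4me1; these are single sites and do not stand for the domains with little H3K27ac in KO as a group. The Itgav and Cd9 sites had both histone marks in every library of both genotypes. PU.1 was listed over the Itgav site in 1 of 2 WT libraries and in no KO library, and over the Cd9 site in both WT libraries and 1 of 2 KO libraries.

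Across the domains, the composite motif was rare at this resolution. It was present (either strand) in 94 of the 2558 adult IRF8 summit windows inside the large domains (3.67%), in 2.70% of 14361 summit windows outside them and in 1.99% of 72954 other 200 bp windows of H3K27ac inside them. Some summit windows inside the domains came from an adult IRF8 consensus region that overlapped a WT PU.1 consensus region. Among these the share was 4.40%, and among the rest 3.28%. The overlap was scored on the whole IRF8 region, not on the 200 bp window. The shorter ETS motif GGAAGT was found in 18.4% of summit windows inside, 17.3% outside and 12.3% of the other H3K27ac windows. The interferon-response motif, a pair of GAAA with any 2 bases between them, was in 3.05% of summit windows inside the domains and 3.00% of the other windows. GGAA alone, which the composite and GGAAGT motifs contain, was in 90.2% of summit windows inside and 87.7% of the other windows. These shares are descriptions of the letters in the windows, with no test.

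The large domains covered 24.3 to 277 kb of consensus H3K27ac, with a median of 34.1 kb over a median span of 74.5 kb and a median of 12 consensus regions. The median over all stitched domains was 2.41 kb, and 56.6% of those consisted of a single region. There was no gap in size at the lower edge: the 5 smallest large domains covered 24.28 to 24.37 kb (Fam168b/Plekhb2, one nearest Gm10260, F9, Arnt2 and Ptprm), and those next in rank 24.16 to 24.27 kb (among them one nearest Chd7, one nearest Nfkbiz, Slc23a2 and Sema4c). The first 20 domains held 12% of the base pairs of all 500.

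**Figure D1:**
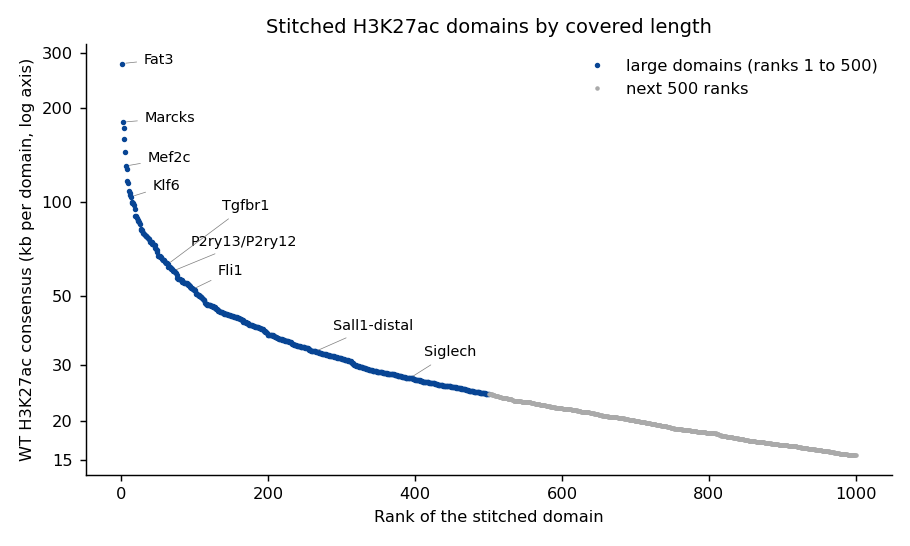
WT H3K27ac consensus length per stitched domain (kb, log axis) against rank for the first 1000 stitched domains; blue points are the 500 large domains and grey points the next 500. The curve falls from 277 kb at Fat3 to 24.3 kb at rank 500 with no step at the edge of the rule.

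Of the 500 domains, 271 held the transcription start of a protein-coding gene, 143 lay in a gene body without a start, and 86 touched no protein-coding gene, with the nearest start a median of 144 kb and at most 852 kb away. A domain is named here by the starts it holds, else by the gene it lies in, else by the nearest start, which says nothing of the gene it acts on. The domain with the most H3K27ac lay in Fat3, which encodes an atypical cadherin (chr9:16025462-16452232, 57 consensus regions, 277 kb). Marcks, encoding an actin- and membrane-binding substrate of protein kinase C, followed (chr10:37132428-37419649, 180 kb). Ranks 3 to 5 held the starts of Zfp277 and Dock4 (a Rac activator), Tbl1xr1 (a corepressor subunit), and Tmem135 and Fzd4 (a Wnt receptor), with 172, 159 and 144 kb.

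The sixth rank was a 130 kb domain in Mef2c, a factor of the macrophage and neuronal lineages, and ranks 13, 17 and 18 were at Klf6 (104 kb), 50 kb from Zeb2 (97.6 kb) and at Etv6 (94.9 kb). Several loci carried more than 1 large domain: 3 were closest to or inside Marcks, 3 to Mef2c and 2 to Klf6. The remaining first 20 domains were at Gm17571, Cables1, Sla/Ccn4, Gm10234, Basp1, Srgap2 and Mbnl1, a domain next to Klf6, and domains nearest Gm11361, 4931417E11Rik and Atp23.

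Genes of microglial identity were present but most lay outside. Over all 21728 protein-coding genes, 1.68% had their start in a large domain and 2.52% overlapped one. Of 16 homeostatic microglia genes, 4 had their start in one: P2ry12 and P2ry13, a pair of purine receptors that share the domain of rank 70 (60.1 kb), Tgfbr1 (rank 63, 63.2 kb) and Siglech, a sialic acid-binding lectin (rank 393, 27.4 kb). Gpr34 lay just below the edge, at rank 518 with 23.7 kb. Sall1, a factor of microglial identity, had its start in a domain of 15.7 kb at rank 978, and the starts of Cx3cr1 and Tmem119 lay in no stitched domain.

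Of 13 TGF-beta pathway genes, 6 had their start in a large domain, the highest share of any list here (46.2%). The receptors Tgfbr1 and Tgfbr2 were at ranks 63 and 69, the SMAD corepressors Ski and Skil at ranks 113 and 288, the integrin gene Itgav at rank 308, and the signal transducer Smad3 at rank 483. Of 32 lineage and partner transcription factors, 5 did: Klf6, Fli1 (an ETS factor, rank 97), Irf2 (rank 232), Ikzf1 (Ikaros, rank 410) and Smad3. The lists overlap in Tgfbr1 and Smad3. Spi1, which encodes PU.1, was at rank 798 with 18.3 kb, and the start of Irf8 lay in no stitched domain.

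Immune response lists had 0 to 2 starts each. No start of 16 interferon-stimulated genes or of 13 antigen presentation genes lay in a large domain; B2m was closest, at rank 515. Tlr4 (the lipopolysaccharide receptor, rank 245) and Il10ra (rank 349) were 2 of 20 Toll-like receptor and cytokine genes (10.0%), and C5ar1, a complement receptor gene at rank 275, the only one of 14 Fc receptor and complement genes (7.14%). The tetraspanin gene Cd9 (rank 355) was the only one of 15 disease-associated microglia genes (6.67%), and the protease genes Lgmn (rank 459) and Ctsl (rank 482) were 2 of 16 lysosomal genes (12.5%). With lists this short, 1 gene moves a share by several points. None of 12 border and peritoneal macrophage genes was present.

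The markers checked the label of the cells. Of 12 microglia markers, 10 had their start in some stitched domain and 3 in a large one. No start of 5 neuron markers or of 4 T, B and NK cell markers was in any stitched domain. None of 8 peritoneal macrophage, 5 oligodendrocyte, 4 endothelial or 4 neutrophil markers was in a large domain, and 2, 2, 2 and 1 of them were in a smaller one. The astrocyte marker Slc1a3 was in a large domain, at rank 126, and the other 4 astrocyte markers were in no domain.

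IRF8 was found in nearly all large domains by adulthood. A consensus region of a group, present in at least 2 of its libraries, was found at P9 in 188 of 500 domains (37.6%), against 6.6% of all stitched domains and 22.2% of the next 500. At P14 it was found in 446 (89.2%, against 30.7% and 76.2%), in adults in 484 (96.8%, against 50.9% and 92.0%), and in PM in 389 (77.8%, against 33.6% and 70.2%). The PM share rested on 2 of its 3 libraries: it was 42.8% without replicate 1 and 45.4% without replicate 2. With only peaks of a −log10 p of at least 10, the P9 and PM shares were 18.4 and 50.4%. Longer domains have more room for a site, so these shares rank the domains by size as well as by binding. By domain, the microglial stages were nearly nested. All 188 domains with a P9 region also had P14 and adult regions. Another 255 had P14 and adult regions only, 41 had an adult region alone, and 3 had a P14 region alone (one nearest Sox4, Aplnr/Lrrc55 and Nav3). With P14 and adult regions in 89.2 and 96.8% of the domains, most domains with a P9 region would hold both anyway. The nesting is thus a description and not a trait of the large domains. In 97 domains there was an adult and no PM region (19.4%, against 23.2% of all stitched domains and 24.6% of the next 500), in 2 (Hdac9 and 2010111I01Rik) a PM and no microglial region, and in 11 no IRF8 consensus region at all; the counts that turn on PM depend on the same 2 libraries.

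Per library, the share of large domains with an IRF8 region was 37.8, 32.4, 46.8 and 29.4% at P9 and 88.6, 96.8 and 86.0% at P14. It was 96.4, 98.4 and 96.8% in adults and 88.2, 83.2 and 61.4% in PM. All P9 libraries lay below all others, the adult and P14 ranges overlapped, and the third PM library stood below the other two. The group means with SD were 36.6 ± 7.64% for the 4 P9 libraries and, with n = 3 each, 90.5 ± 5.64% for P14, 97.2 ± 1.06% for adults and 77.6 ± 14.2% for PM.

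These differences were tested by exact two-sided permutation of the libraries, adjusted by Benjamini-Hochberg over 11 tests; the eleventh, on density, is not used as a test below, and without it the smallest adjusted p is 0.143. P14 exceeded P9 by 53.9 percentage points and adults exceeded P9 by 60.6 (exact p = 0.0286 each, the smallest that 4 against 3 libraries allow, adjusted p = 0.105). Adults exceeded P14 by 6.73 points (exact p = 0.3, adjusted p = 0.33) and PM by 19.6 (exact p = 0.100, adjusted p = 0.183). P14 exceeded PM by 12.9 points (exact p = 0.200, adjusted p = 0.244). Both PM differences rested in part on PM replicate 3: without it they were 11.5 points for adults and 4.77 for P14. No difference passed after adjustment, and with 3 against 3 libraries 0.100 is the smallest possible p. Adults exceeded PM by 11.7 points within batch 1 (2 libraries each) and by 35.4 within batch 2 (1 each). In the next 500 domains the shares per library were 21.8, 19.4, 31.2 and 19.6% at P9 and 73.2, 90.8 and 69.4% at P14. They were 91.6, 97.2 and 89.2% in adults and 83.0, 76.4 and 45.2% in PM. All P9 libraries again lay below all others, and adults above PM. These differences are therefore not particular to the large domains.

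The comparison was also made at equal list length. When each library was reduced to its 1157 regions of highest −log10 p, the length of the shortest list, the share of large domains with an IRF8 region was 33.0, 32.4, 32.6 and 28.6% at P9, 36.8, 35.2 and 37.2% at P14, and 36.6, 37.2 and 36.6% in adults. In PM it was 25, 24.8 and 18%. A list this short cannot reach most of the 500 domains, so a fall at P14 and in adults follows from the reduction and does not say how much of the stage difference is due to list length. P14 then exceeded P9 by 4.75 points, in place of 53.9, and adults exceeded PM by 14.2 in place of 19.6, with adjusted p of 0.105 and 0.122. The microglial libraries of every stage lay above all PM libraries at this length. As H3K27ac of adult microglia chose the domains, the choice of domains and the tissue cannot be told apart in any PM comparison here.

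**Figure D2:**
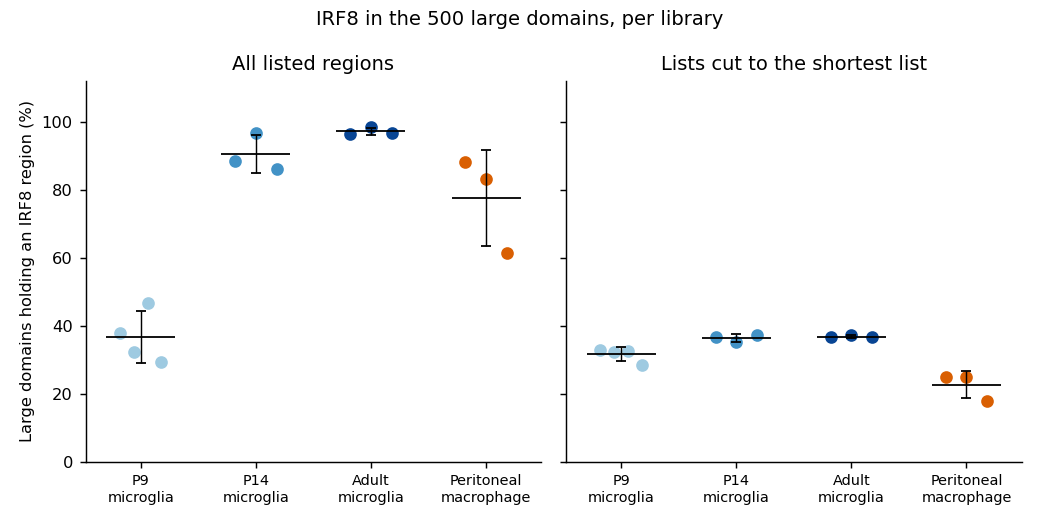
Share of the 500 large domains (%) holding an IRF8 region, one point per library, with the group mean (line) and SD (bar), for full lists (left) and lists reduced to 1157 regions (right). The P9 libraries sit at 29.4 to 46.8% on the left and within 28.6 to 33.0% on the right, while PM lies lowest on the right at 18 to 25%.

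The share of each IRF8 list that lay inside the large domains was also compared. It was 18.5, 19.9, 16.8 and 15.3% at P9, 17.2, 13.8 and 14.4% at P14, 15.5, 14.2 and 10.0% in adults, and 9.52, 10.4 and 5.94% in PM. The microglial ranges overlapped one another; P14 lay above PM without overlap, and the lowest adult library lay within the PM range. P14 exceeded PM by 6.49 points (exact p = 0.100, adjusted p = 0.183) and adults exceeded PM by 4.61 (exact p = 0.200, adjusted p = 0.244), with 4.87 within batch 1 and 4.10 within batch 2. With lists of equal length the means with SD were 18.2 ± 1.76% for the 4 P9 libraries and, with n = 3 each, 21.7 ± 0.576% for P14, 20.7 ± 1.04% for adults and 12 ± 2.18% for PM. The order of P9 against the later stages thus turned round with list length: P14 minus P9 was −2.50 points with full lists and 3.45 with equal ones, and adult minus P9 was −4.38 and 2.50.

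IRF8 regions were sparser, per length of H3K27ac, in the large domains than in those just below them. Per Mb of consensus H3K27ac, each of the 13 IRF8 libraries had fewer regions in the large domains than in the next 500 ranks, from 9.0 against 11.1 in the P9 library with fewest to 200 against 233 in the adult library with most. The mean over these libraries was 72.6 against 87.4, a difference of −14.8. H3K27ac length is what ranked the domains, and all libraries share the same 2 sets of domains, so this is a description with no test. On 2 other bases, chosen after seeing the data, the difference was −4.10 per Mb of domain span (lower in 13 of 13 libraries) and −1.46 per 100 consensus regions (lower in 12 of 13). With stitching at 5 kb it was −7.07 per Mb of H3K27ac. The other targets also had fewer regions in the large domains on the H3K27ac base: the ratio of large to next domains was 0.811 to 0.849 over the 4 PU.1 libraries, 0.795 to 0.836 over the 4 H3K4me1 libraries and 0.926 to 0.983 over the 4 H3K27ac libraries. Per Mb of domain span, PU.1 and H3K4me1 were again lower in every library, but H3K27ac was not. It had 235.7 and 224.4 regions in the large domains against 234.4 and 224.2 in WT, and 205.2 and 82.59 against 193.2 and 79.22 in KO.

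**Figure D3:**
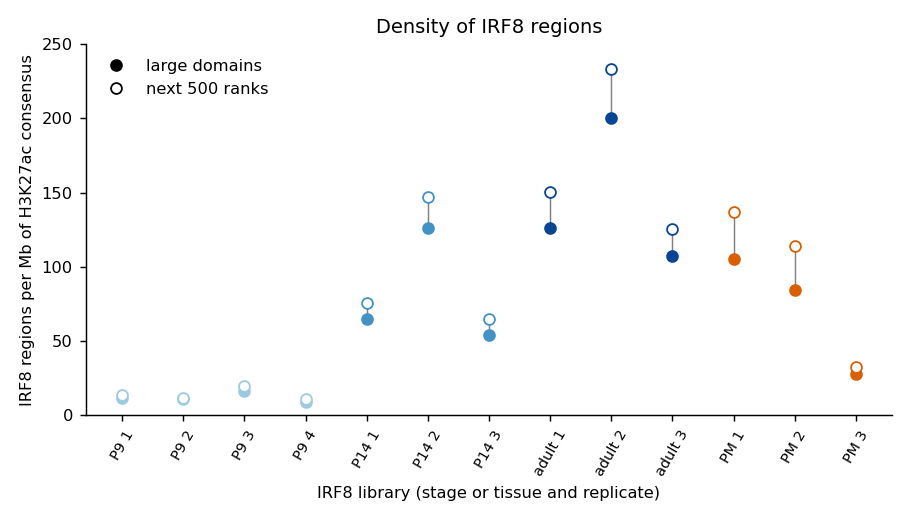
IRF8 regions per Mb of consensus H3K27ac in each of the 13 IRF8 libraries, in the 500 large domains (filled) and the next 500 ranks (open). Every filled point lies below its open partner, from 9.0 against 11.1 at P9 to 200 against 233 in adults.

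The large domains held 2558 adult IRF8 consensus regions, with a median of 5 and at most 19 per domain, and 261 domains held 5 or more. Etv6, an ETS-family repressor gene, had the most: 18, 27 and 18 regions in the 3 adult libraries, against 3 to 5 per library at P9, 9 to 20 at P14 and 6 to 14 in PM. Srgap2, a GTPase-activating protein gene, came next with 17 consensus regions, followed by Dock4 and Tbl1xr1 (16 each), then Elmo1 (an engulfment adaptor) and Gpr18/Gpr183/Timm8a2 (15 each), Marcks and Sla/Ccn4 (14 each), and Bmp2k and Rasgrp3 (13 each). The adult count did not carry over to PM in the same measure: Marcks held 14 adult but 3 PM consensus regions, and Sla/Ccn4 held 14 of each.

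At P9 the domains held 268 consensus regions in all. The 10 longest domains with one were Fat3, Marcks, Zfp277/Dock4, Tmem135/Fzd4, Mef2c, Cables1, Sla/Ccn4, one nearest Gm11361, Basp1 and Klf6. Marcks had the most P9 consensus regions of these with 5, from 5, 5, 6 and 3 per library. P2ry13/P2ry12 held 4, from 2, 4, 6 and 3 per library, and then 9, 10 and 8 regions per library at P14, 11, 16 and 9 in adults and 7, 6 and 2 in PM. The Siglech/Tubgcp5 domain held 1 region in each P9 library, 4 in each P14 library, 6, 6 and 7 in adults and 1, 0 and 0 in PM. Tgfbr2, by contrast, had no region in any P9 library, 6, 12 and 4 at P14, 12, 18 and 13 in adults and 7, 7 and 3 in PM. Klf6 had 13, 14 and 3 regions in PM and 6, 7 and 6 in adults, and Irf2 had 14, 10 and 5 in PM and 5, 10 and 5 in adults, so these ranges overlapped.

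Of the adult IRF8 consensus regions in the large domains, 48.9% overlapped a P14 consensus region, 10.3% a P9 region and 38.9% a PM region, against 42.2, 7.27 and 39.6% of adult regions elsewhere. The overlap with WT PU.1 consensus regions was 35.6% inside and 25.5% outside. All these shares are of merged regions and depend on the length of both lists.

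PU.1 was present in most large domains in both genotypes. A WT consensus region was found in 435 domains (87.0%, against 22.6% of all stitched domains and 70.2% of the next 500), and a KO one in 367 (73.4%, against 19.2 and 56.6%). With only peaks of a −log10 p of at least 10, the shares of large domains were 53.6% in WT and 44.8% in KO. Both genotypes had one in 348 domains, only WT in 87 (17.4%, against 8.73% of all stitched domains and 20.4% of the next 500), only KO in 19 and neither in 46. Per library, 97.0 and 92.8% of the domains had a PU.1 region in WT and 84.4 and 87.2% in KO. Both KO libraries lay below both WT libraries, with a mean difference of −9.10 points, or −12.6 and −5.60 points within replicate numbers 1 and 2, whose peaks were called against the same control and q-value threshold. With lists of equal length (9463 regions) the shares were 94.2 and 92.8% in WT and 83.4 and 83.8% in KO. With 2 against 2 libraries no exact test can pass 0.05, and none was made.

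At single sites, the large domains held 1022 WT PU.1 consensus regions, of which 228 (22.3%) had no peak in either KO library, against 25.6% of WT PU.1 regions elsewhere. Per KO library, 67.0 and 65.3% of them had a peak, against 63.9 and 62.1% elsewhere. PU.1 regions per domain reached 10 in WT, at Marcks, where 15 and 10 regions were listed in WT and 10 and 11 in KO. The Etv6 domain had 17 and 10 regions in WT and 6 and 9 in KO, and the Fli1 domain 11 and 5 in WT and 5 and 5 in KO. The Etv6 libraries did not overlap between genotypes, whereas those of Marcks and Fli1 met or overlapped.

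H3K27ac in the large domains was lower in both KO libraries than in both WT libraries. Of their consensus base pairs, 85.8 and 72.6% lay under a peak in the WT libraries, and 37.0 and 11.3% in the KO libraries. The next 500 domains had 35.5 and 10.8% in KO, and all other domains 33.2 and 9.51%, so the large domains were close to the rest. As the members come from WT H3K27ac, WT is high by construction and no test was made. KO replicate 2 was the shallowest of these libraries and had the shortest list. With all 4 lists reduced to 31369 regions the shares were 72.6 and 60.6% in WT and 27.5 and 11.3% in KO. Because these regions differ in width between libraries, they still covered 59.6 and 50.8 Mb in WT and 33.1 and 16.9 Mb in KO.

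Per domain, the covered share had a median of 86.4% (57.6 to 99.4%) and 73.8% (44.8 to 95.8%) in the WT libraries, and of 37.6% (0 to 70.9%) and 10.2% (0 to 42.7%) in the KO libraries. Both KO libraries were below both WT libraries in 499 of 500 domains, against 83.7% of all stitched domains and 98.8% of the next 500, so the count is not particular to the large domains. Under 50% was left in both KO libraries in 429 (85.8%), against 74.2% of all stitched domains and 84.0% of the next 500. This count depends on measuring base pairs: of the consensus regions in the large domains, 68.6 and 33.0% overlapped some peak in the KO libraries, and by that measure 11.8% of domains had under 50% left in both. By base pairs, under 25% was left in both in 89 (17.8%, against 43.4% of all stitched domains and 24.2% of the next 500), and under 10% in 19 (3.8%, against 28.5% and 6.2%). The domains kept a similar order in the 2 KO libraries (Spearman correlation of 0.671 over 500 domains, which share their regions). The value for the 2 WT libraries (−0.405) cannot be set against it, since by the rule every base counted was listed by at least 1 WT library.

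H3K4me1 peaks on the same base pairs differed far less between genotypes, but the marks were not measured on equal terms. WT H3K27ac chose these base pairs, which makes WT high by construction for H3K27ac alone. H3K4me1 was also called broad and by p-value, and H3K27ac by q-value. How much of the contrast between the marks comes from these choices was not tested. H3K4me1 covered 86.7 and 84.0% in WT and 77.3 and 79.2% in KO. The per-domain medians were 92.6 and 89.7% in WT and 87.1 and 87.8% in KO, but the lower end spread out: 67 and 53 domains were under 50% covered in the KO libraries, against 9 and 18 in WT. The next 500 had 55 and 39 such domains in KO and 8 and 16 in WT. Both KO libraries were below both WT libraries in 217 of 500 domains, against 21.5% of all stitched domains and 37.4% of the next 500. The H3K4me1 lists covered 314 and 468 Mb in KO (15.8 and 23.9 M fragments) and 293 and 321 Mb in WT (14.5 and 14.1 M), so KO replicate 2 had the longest list and KO replicate 1 lay between the WT libraries. With all 4 lists reduced to 104818 regions, a comparison added after seeing the data, H3K4me1 covered 86.7 and 83.6% in WT and 77.1 and 76.8% in KO.

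**Figure D4:**
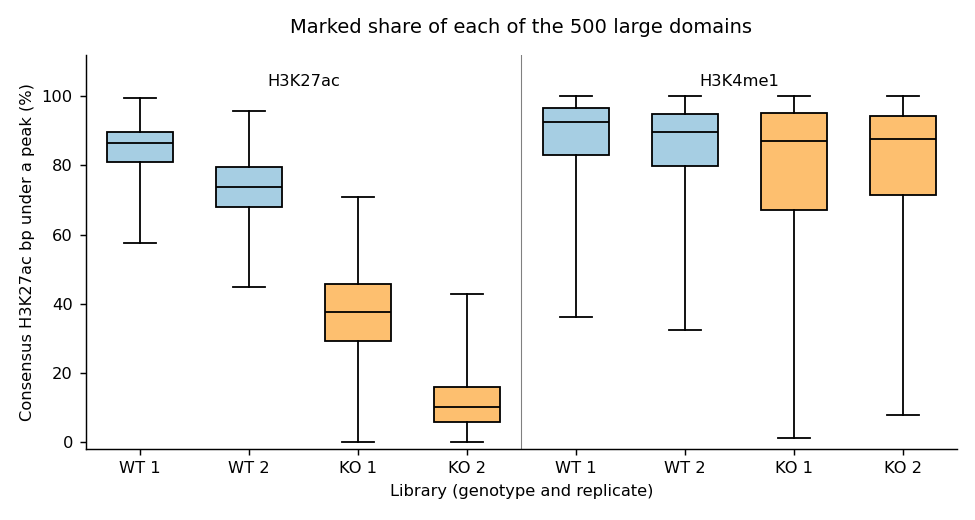
Share of each domain's consensus H3K27ac base pairs (%) under an H3K27ac peak (left) and under an H3K4me1 peak (right) in each adult library, over the 500 large domains; boxes show the quartiles and median, and whiskers the lowest and highest domain. H3K27ac medians are 37.6 and 10.2% in KO against 86.4 and 73.8% in WT, while H3K4me1 medians stay between 87.1 and 92.6%. The marks were called with unlike cutoffs, and WT H3K27ac chose the base pairs.

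The 18 domains with the start of a listed gene kept most of their H3K4me1 in KO, as did most large domains. Their H3K4me1 medians were 93.0 and 89.7% in WT and 95.5 and 94.1% in KO, where the lowest values were 50.3 and 52.0%. In KO, the 271 large domains holding any start had medians of 91.5 and 90.5%, and all 500 had 87.1 and 87.8%. The H3K27ac share of the 18 domains was 27.7 to 56.2% (median 38.9%, against 37.6% over all large domains) in KO replicate 1. In replicate 2 it was 2.56 to 27.4% (median 15.4%, against 10.2%). At P2ry13/P2ry12 H3K27ac covered 83.8 and 83.6% in WT and 51.3 and 18.4% in KO, with H3K4me1 at 98.3 and 97.4% in WT and 96.0 and 94.5% in KO. At Siglech/Tubgcp5 H3K27ac was 90.7 and 77.1% in WT and 56.2 and 18.7% in KO. Among the TGF-beta genes the KO shares were 38.9 and 22.6% at Tgfbr1, 39.8 and 16.7% at Tgfbr2, and 33.1 and 2.56% at Smad3. Fli1 was at 29.8 and 9.82% and Ikzf1 at 37.6 and 27.4%. In each of these domains both KO libraries lay below both WT libraries.

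A small group of domains was empty or nearly so. In 5 domains neither KO library listed any H3K27ac, against 9 of the next 500 (1.8%) and 4033 of all 16163 stitched domains (25%), whose median length is 2.41 kb. These were at Pcp4 (a calmodulin-binding protein gene), P3h2 (a prolyl hydroxylase gene), and intergenic stretches nearest Mllt3, Tmpo and 4930452B06Rik, at 304, 494 and 684 kb. The other 5 of the 10 lowest were in Magi1 (0 and 0.578% left), 339 kb from Sall1 (0.704 and 0%), at Aplnr/Lrrc55 (0 and 1.03%), in Kcnma1 (1.41 and 0%) and 90.4 kb from 4931417E11Rik (1.92 and 0.675%). The last is the domain of rank 16, with 99.1 kb of consensus H3K27ac in WT.

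The Sall1-distal domain (chr8:89382809-89436471, 6 consensus regions, 33.3 kb) is described in full; it was chosen after its values were seen. H3K27ac covered 82.6 and 88.4% of it in WT, and H3K4me1 covered 94.9 and 91.3% in WT and 3.08 and 7.70% in KO. PU.1 was listed at 3 and 3 regions in WT and at none in KO. IRF8 was listed at 0, 1, 1 and 1 regions at P9, at 3, 6 and 3 at P14, at 4, 8 and 4 in adults, and at none in PM. The P3h2 domain was alike: H3K4me1 was 94.8 and 98.7% in WT and 12.5 and 12.9% in KO, PU.1 had 3 and 2 regions in WT and none in KO, and IRF8 had 2, 8 and 3 regions in adults and 2, 0 and 0 in PM.

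The 19 domains with under 10% of H3K27ac left in both KO libraries shared features that the choice did not use. None had a KO PU.1 consensus region, against 76.3% of the other 481 domains, and 14 (73.7%) had a WT one, against 87.5%, so a smaller gap was already there in WT. Their H3K4me1 medians were 87.9 and 81.0% in WT and 19.3 and 35.1% in KO. The others had 92.6 and 89.9% in WT and 88.4 and 88.4% in KO, so a smaller gap was there in WT too. Only 3 of the 19 (15.8%) held a protein-coding start, against 55.7%. Adult IRF8 consensus regions were present in 17 (89.5%, against 97.1%), P9 regions in 11 (57.9%, against 36.8%), and PM regions in 6 (31.6%, against 79.6%). These are descriptions of a group picked by its KO values, with no test.

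At the other end, the 10 domains with most H3K27ac left were in Poc1b, Lrp6 (a Wnt coreceptor gene), Elf1 and Galnt7, at Picalm (a clathrin assembly gene), B3gnt2, Ccr1/Ccr1l1 and Snx24, and nearest Eed and Bmper. Poc1b kept 66 and 42.7%, from 94.7 and 70.2% in WT. The chemokine receptor domain Ccr1/Ccr1l1 kept 45.0 and 40.2%, from 79.9 and 72.6% in WT, and had 5, 5, 6 and 2 IRF8 regions at P9, 12, 12 and 7 at P14, 11, 11 and 8 in adults and 13, 12 and 2 in PM. All 10 had adult and PM IRF8 consensus regions, as 96.8 and 77.8% of all large domains did, and 9 had a KO PU.1 consensus region, against 73.4%.

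**Figure D5:**
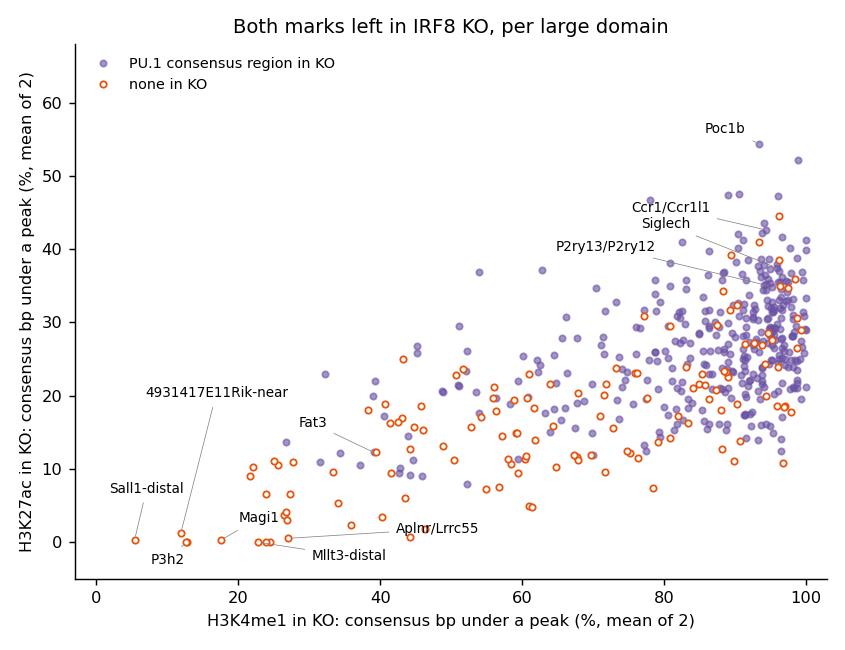
H3K4me1 (x) and H3K27ac (y) left in KO, as the share (%) of each large domain's consensus base pairs under a peak, mean of the 2 KO libraries; filled points are the 367 domains with a PU.1 consensus region in KO and open points the 133 without. The Sall1-distal domain lies at 5.39 and 0.352%, P2ry13/P2ry12 at 95.2 and 34.9%, and the 10 domains with least H3K27ac are all open points.

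PU.1 in KO went with both marks across all 500 domains. The 133 domains without a KO PU.1 consensus region had median H3K27ac shares of 28.5 and 4.24% in the KO libraries, against 39.3 and 12.2% in the 367 with one. Their H3K4me1 medians were 61.8 and 69.8% in KO, against 91.3 and 90.2%. In WT the same 133 domains had H3K4me1 medians of 87.9 and 83.8%, against 93.4 and 91.5%, and H3K27ac medians of 86.9 and 69.9%, against 86.0 and 75.5%, so a smaller gap was already there in H3K4me1 and in H3K27ac replicate 2. A WT PU.1 consensus region was present in 87 of the 133 and in 348 of the 367. None of these differences was tested.

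Domains with many IRF8 sites were not the ones with least H3K27ac left. In 4 equal groups of 125 domains by adult IRF8 consensus regions per 10 kb of H3K27ac, the group with fewest had the lowest medians in KO, 31.9 and 6.03%, against 38.9 and 13.5% in the group with most. The 2 groups between had 39.2 and 38.4% in KO replicate 1 and 10.8 and 11.4% in replicate 2. In replicate 1, then, only the group with fewest stood apart. H3K4me1 medians in KO were 53.5 and 65.2% in the group with fewest and 94.1 and 92.4% in that with most. WT H3K4me1 was not taken for these groups, so these values are not changes from WT. In WT replicate 2 the H3K27ac median also ran from 67.5 to 78.4% across these groups, and in WT replicate 1 from 86.7 to 83.0%. The 16 domains with no adult IRF8 consensus region had medians of 20.1 and 2.63% for H3K27ac in KO and 46.2 and 60% for H3K4me1. They were already low in WT for H3K4me1, at 68.5 and 69.6% against 92.6 and 89.7% over all large domains. Their WT H3K27ac medians were 87.25 and 64.53%, against 86.36 and 73.82%. All groups share the same libraries, and the part of the WT differences in these values was not tested.

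Ranking each library on its own gave lists that overlapped in part. Of the top 500 stitched domains of WT replicate 1, 75.6% overlapped the top 500 of WT replicate 2, 62.0% that of KO replicate 1 and 38.2% that of KO replicate 2. KO replicates 1 and 2 overlapped each other at 48.4 and 56.0% of their lists. The domain at rank 500 covered 28.8 and 22.6 kb in the WT libraries and 16.5 and 3.57 kb in the KO libraries. Of the 500 large domains, 59.6% overlapped a top-500 domain of KO replicate 1 and 41.2% one of replicate 2, against 80.6 and 82.8% for the WT libraries that chose them.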

How the data were processed

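Per the file headers, the authors ran MACS on every library by itself against an IgG control (2.2.7.1 for the IRF8 and PU.1 lists, 2.2.6 for histone marks), keeping duplicate fragments. Regions were joined over gaps up to 640 bp at a q-value of 0.01 (0.05 for PU.1 replicate 2); H3K4me1 was called broad, at a p-value of 0.01 and a minimum length of 1000 bp. Bowtie2, Trim Galore, deepTools and the build mm10 come from the submitters' processing notes. Read filters: not given in the sources used here. Per peak, the files as deposited give the pileup signal (fragment coverage, larger sample scaled down), the −log10 p-value and the fold enrichment, all the authors' own values, used only to rank or filter peaks within a list.

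Entries of 1 region were counted once. Overlap means at least 1 bp, and a group consensus is a region, after merging, that 2 or more libraries of the group list. Genes are protein-coding genes of GENCODE vM21; sequences are RefSeq GRCm38.p6. Domains named are the first 20, those with the start of a listed gene, the 10 lowest and 10 highest in KO, 5 ranks on each side of the edge, the 10 with most adult IRF8 regions, the first 10 with a P9 region and those with a PM region alone. The members and gene lists were chosen with earlier results of these data known. Some items covered by these rules are not reported here. Clec7a and Lrrc33 found no match in the annotation. Exact permutation tests ran over libraries (numpy 2.4.6), with code tested on simulated data. Alternatives were the stitching distance, ranking by span, 250 or 1000 domains, starts left out, a −log10 p of at least 10, equal list lengths and each library left out. Same-numbered IRF8 libraries did not deviate together (r from −0.0733 to 0.258 over 18 pairs), so replicate numbers were not used as pairs.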

Additional observations from a re-analysis of the deposited data

How the results depend on the processing

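Under the alternatives that left no library out, 75 of 87 values with no test stayed within their error or within 1.5 times of a count, and 2 of 115 values of the tested differences changed direction. Staying on 1 side of the threshold says nothing of the 10 library comparisons, since no alternative could have passed after adjustment. With a −log10 p of at least 10, IRF8 consensus regions were in 18.4% of domains at P9 and 50.4% in PM, and PU.1 in 53.6% (WT) and 44.8% (KO). With equal list lengths they were in 33.4% at P14, 32.6% in adults and 19.4% in PM, and the share of regions inside the domains changed direction (P14 minus P9 3.45 points, adult minus P9 2.5); shorter lists define this alternative. When a consensus needed all libraries of a group, P9 was at 13.8% and PM at 41.2%. Stitching at 5000 bp took the density difference to −7.07 per Mb. Counting consensus regions with any KO peak in place of base pairs, 50.8% of H3K27ac was left and 11.8% of domains were under 50% in both KO libraries. By base pairs, 17.8% were under 25% in both. Leaving out single libraries moved the share of domains with a consensus region in PM from 77.8% to 42.8 (without replicate 1) or 45.4% (without replicate 2), P9 to as low as 28.4%, P14 to 74.6% and adults to 91.2%. Differences in the share of domains then ran from 4.77 to 18.2 points for P14 minus PM and from 11.5 to 24.9 for adult minus PM, and in the share of regions from −5.51 to −2.77 for adult minus P9 and from −3.01 to −0.27 for adult minus P14. The H3K27ac left ranged from 11.3 to 37.0% as either KO library was left out, and the domains under 50% in both from 82.8 to 100%. With replicate block, the mean within-number difference in the share of domains with an IRF8 region was 51.5 points for P14 minus P9 and 58.2 for adult minus P9, and no call changed (exact sign-flip p = 0.250, the smallest 3 pairs allow). The PU.1 difference with replicate block was −9.10 points. The shallow KO H3K27ac replicate 2 limits how low a covered share can be read, and absent peaks there are not absent marks.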
